A study of Mus musculus with 20 samples.

Results

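GATA2-rescued cells were compared with wild-type cells to read which genes the GATA2 vector left away from their wild-type level and which it carried past it. The comparison used 8 of the 20 libraries of the series, chosen by their sample titles: 4 of rescued cells and 4 of wild-type cells. Both groups were blood progenitor cells of E14.5 fetal liver of C57BL/6J mice, depleted of mature cells by their lineage markers (Lin-) and infected with a retrovirus right after isolation. Both were then kept for 3 days in medium with serum and with medium conditioned for interleukin 3 (IL-3) and stem cell factor. Rescued cells lacked the distal upstream enhancer of Gata2 (named -77 in the labels) and received the pMSCV-Gata2 vector. Wild-type cells kept the enhancer and received a control vector. Another group of 4 libraries, cells without the enhancer that received the control vector, served as the starting level and is called enhancer-null here. The other 8 libraries, enhancer-null cells with a GATA2 variant, entered only the common filter on low counts, the scaling and the estimate of the spread. The labels name neither the species of the vector's GATA2 nor a selection of infected cells. They do not say whether replicates came from separate animals or cultures, so the p-values reflect only how far these libraries vary, which may be technical.

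GATA2 is a zinc finger transcription factor that binds GATA motifs in DNA and is needed for blood stem and progenitor cells. This enhancer is known to drive Gata2 in myeloid and erythroid progenitors of the fetal liver. As red cell precursors mature, GATA1 replaces GATA2 at many of the same sites and switches on globin, haem and membrane genes. Basophils, mast cells and eosinophils are the granulocytes in which GATA2 is known to stay active.

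Levels are TMM-scaled expected counts as CPM, a unit that compares 1 gene between libraries and not 1 gene with another. Values after ± are SD over 4 libraries. Log2 differences are rescued minus wild-type with their standard error (SE), and a gene was called at an edgeR adjusted p under 0.05 over 15835 tested genes. Libraries held 22330475 to 33245876 counts. Of the 10 Lin- progenitor markers 9 were called higher in rescued cells and 0 lower (median log2 difference 0.74). Kit, the receptor of stem cell factor, had 122 CPM in wild-type and 98.3 in rescued cells and was not called (edgeR adjusted p = 0.0753; called with a log2 difference of -0.42 when GATA2 replicate 4 was left out). Of 12 markers of mature cells 7 had enough counts to test. Among the 7, 2 were called lower and 1 higher, against 16.0% and 14.7% of all tested genes. The higher one was Adgre1, and 2 were higher without GATA2 replicate 4. Several libraries stood apart. GATA2 replicate 4 had the most Gata2 and GATA2 replicate 3 the least among rescued libraries, wild-type replicate 2 was high in neutrophil and interferon genes, and wild-type replicate 1 was high in hepatocyte genes. Counts that hang on 1 of these libraries are given with and without it.

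Gata2 itself checks the labels. It lies on chromosome 6 from 88193891 to 88207032 of GRCm38 and had 53.0, 31.5, 41.8 and 50.9 CPM in wild-type replicates 1 to 4. Rescued replicates 1 to 4 had 71.0, 76.7, 42.9 and 132 CPM, and enhancer-null cells 5.79 ± 1.3. All 4 rescued libraries lay above all enhancer-null libraries, and replicate 3 alone lay within the wild-type range. The rescued level was 182% of wild-type, a log2 difference of 0.86 (SE 0.33) that narrowly missed the call (edgeR adjusted p = 0.051). Without GATA2 replicate 3 it was called, at 1.11 (edgeR adjusted p = 0.0132), and it was also called by DESeq2 (adjusted p = 0.0269). Against enhancer-null cells the log2 difference was 3.8 (SE 0.37, edgeR adjusted p = 2.41e-06). The counts cannot separate reads of the vector from those of the gene.

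Of the 15835 genes tested, 4869 (30.7%) were called between rescued and wild-type cells, 2335 higher (14.7%) and 2534 lower (16.0%). The median log2 difference over all tested genes was -0.004. At least 2-fold differences made up 2002 of the calls, 732 higher and 1270 lower. The 4 libraries of one group lay entirely above those of the other for 4009 genes (25.3%). Enhancer-null cells differed from wild-type in 6859 genes, 3181 higher (20.1%) and 3678 lower (23.2%), and 3085 of these were not called in rescued cells. The vector itself, rescued against enhancer-null cells, gave 1738 higher (11.0%) and 1304 lower (8.23%) genes, and 694 lower genes without enhancer-null replicate 4. These 3 comparisons share libraries, so the classes that follow are a description and were not tested as overlaps.

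A class of 1991 genes stayed low, meaning called below wild-type in both rescued and enhancer-null cells. It held 40.9% of the rescued calls, with a median log2 difference of -0.912. The vector raised 353 of them, lowered 65 (39 without enhancer-null replicate 2 and 18 without enhancer-null replicate 4) and left 1573 without a call. A class of 1635 genes (33.6%) stayed high, with a median of 0.684, of which the vector raised 71 (45 without enhancer-null replicate 3) and lowered 431 (268 without enhancer-null replicate 1 and 266 without enhancer-null replicate 4). The order of these class sizes turned in limma, with 1396 low and 1639 high, and by smaller margins when wild-type replicate 2, GATA2 replicate 1, GATA2 replicate 2 or replicate 4 of both groups was left out. Overshoot, meaning below wild-type without the enhancer and above it with the vector, was called for 148 genes (3.04%), with a median of 1.47. In the opposite direction, overshoot below wild-type was called for 0 genes by edgeR and 0 by DESeq2, and 2 genes had unadjusted p under 0.05 in both comparisons. It was called for 1 gene without wild-type replicate 1 and for 1 without GATA2 replicate 3. The 148 overshoots became 84 when replicate 4 of both groups was left out. A further 552 genes (11.3%) were higher and 543 (11.2%) lower in rescued cells without an enhancer-null call. The vector raised 317 of the 552 and lowered 109 of the 543, and left 235 and 434 of them without a call. The plot of all tested genes shows the long lower arm of the genes that stayed low and the smaller number of overshoots among the higher ones.

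**Figure D1:**
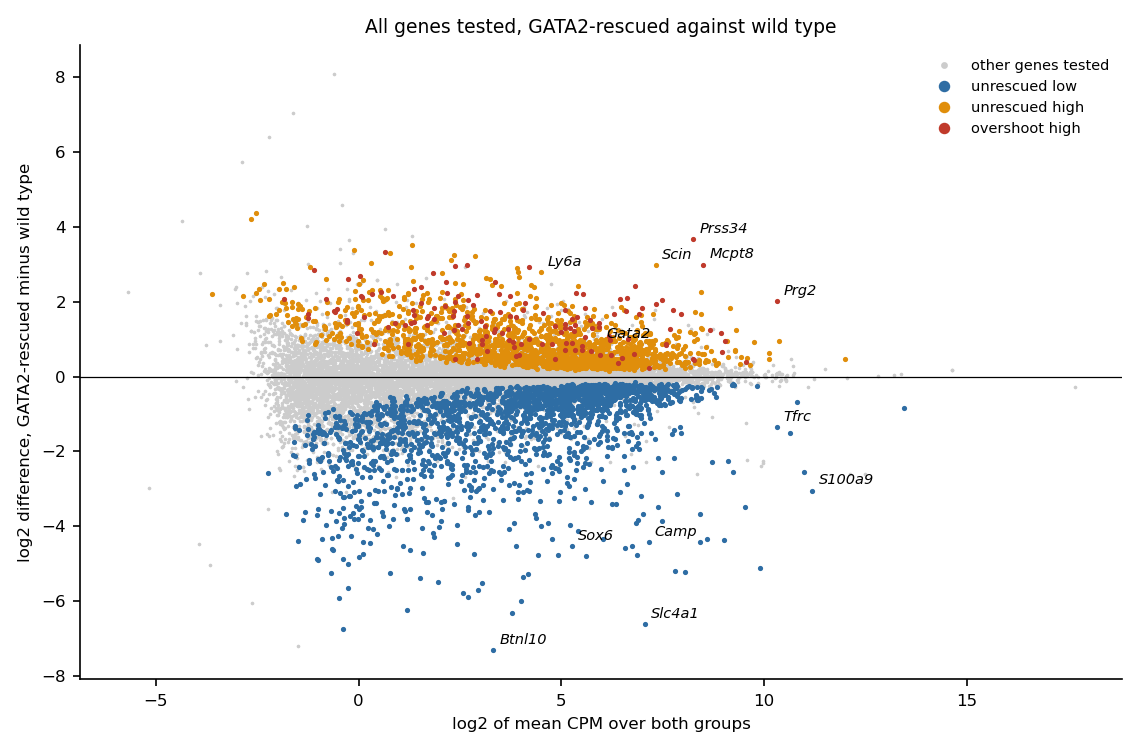
Each point is 1 of 15835 tested genes, with the log2 of its mean CPM over both groups on the horizontal axis and its log2 difference, rescued minus wild-type, on the vertical axis. Colours mark the 1991 genes that stayed low, the 1635 that stayed high and the 148 overshoots, and labels mark 12 named genes; Slc4a1 and Btnl10 lie lowest of those labelled, Prss34 highest.

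Genes of late red cell precursors were the furthest below wild-type. Among genes that reached 5 CPM on average in either group and whose libraries did not overlap, the 6 largest differences in the class that stayed low were Btnl10, Slc4a1, Trim10, Dmtn, Ypel4 and Fn3k, with log2 differences of -7.32 to -5.78. Slc4a1, the band 3 anion exchanger of the red cell membrane (chromosome 11, 102348824 to 102366203), had 186, 258, 262 and 350 CPM in wild-type and 1.47, 3.35, 1.99 and 3.84 in rescued libraries. Its rescued level, 1.01% of wild-type, was also below the enhancer-null level of 8.42 ± 3.19 CPM (3.19% of wild-type; log2 -1.66, edgeR adjusted p = 0.0135), a call lost without enhancer-null replicate 4 (-1.40, edgeR adjusted p = 0.0524). Against wild-type the log2 difference was -6.63 (SE 0.50, edgeR adjusted p = 2.38e-08). Btnl10, a butyrophilin-like gene (chromosome 11, 58917908 to 58927158), had 11.8, 20.6, 21.0 and 25.2 CPM in wild-type and 0.107, 0.152, 0.187 and 0.0343 in rescued libraries. Trim10, which encodes a RING finger protein of maturing red cells, had 20.9, 28.4, 30.8 and 28.8 CPM against 0.215, 0.342, 0.375 and 0.411, and was also moved further from wild-type by the vector (log2 -1.70, edgeR adjusted p = 0.00219). In bulk RNA, fewer cells of a type and less RNA per cell cannot be told apart.

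The promoters of the largest differences are shown because GATA motifs are the sites that both GATA1 and GATA2 bind. Each line gives the 250 bases before the start of the gene, 5′ to 3′ on its own strand, from RefSeq on GRCm38.p6. For Mcpt8, whose start lies further upstream in the gene model of the files, only the 174 bases before that start are given. Capitals mark matches on either strand to AGATAA or to its variants that begin with T, end with G or do both. Btnl10, chr11:58917658-58917907, plus strand, the first of 2 entries, held 2 matches, and Trim10, chr17:36869324-36869573, plus strand, held 1. Both genes stayed low. Prss34, chr17:25298144-25298393, plus strand, held 1 match, and Mcpt8, chr14:56085274-56085447, minus strand, held 0. These are the 2 largest overshoots, described further on.
Btnl10: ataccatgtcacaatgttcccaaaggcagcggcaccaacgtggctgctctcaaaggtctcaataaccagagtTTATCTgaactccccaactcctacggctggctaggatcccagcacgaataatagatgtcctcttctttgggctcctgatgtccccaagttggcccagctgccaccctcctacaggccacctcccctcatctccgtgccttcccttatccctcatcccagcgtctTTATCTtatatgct
Trim10: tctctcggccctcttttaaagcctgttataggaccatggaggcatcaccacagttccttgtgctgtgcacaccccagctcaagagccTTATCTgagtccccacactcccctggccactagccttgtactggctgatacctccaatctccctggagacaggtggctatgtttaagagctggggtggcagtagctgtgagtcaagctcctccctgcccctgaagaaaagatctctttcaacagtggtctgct
Prss34: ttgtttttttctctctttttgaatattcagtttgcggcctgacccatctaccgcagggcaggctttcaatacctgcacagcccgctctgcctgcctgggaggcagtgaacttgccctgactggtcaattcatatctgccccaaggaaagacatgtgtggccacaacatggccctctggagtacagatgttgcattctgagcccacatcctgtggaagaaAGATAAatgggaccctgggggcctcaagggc
Mcpt8: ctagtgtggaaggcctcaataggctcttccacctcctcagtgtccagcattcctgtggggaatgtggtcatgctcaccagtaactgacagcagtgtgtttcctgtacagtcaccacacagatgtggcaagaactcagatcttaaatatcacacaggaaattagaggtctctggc
The same motifs were in 27.1% of all 27025 promoters in the table and in 18.0% of the 10702 that belong to tested genes. These shares count the RefSeq windows of 250 bases. The motifs were in 19.3% of 1466 promoters of genes that stayed low and in 35.5% of 110 promoters of overshoots. Among lists, 5 of 7 globin, 8 of 13 red cell membrane and 2 of 10 haem synthesis promoters held a match. So did 3 of 9 eosinophil and 10 of 18 IgE receptor and mast cell promoters. A match describes the letters of this window and does not show a bound site. Slc4a1 has no promoter shown.

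The adult globin genes stayed far below wild-type. Of 7 tested globin genes 5 were called lower and 0 higher, with a median log2 difference of -5.13, and the embryonic pair Hba-x and Hbb-y was not called. Hbb-bs, an adult beta globin, had 1300, 1820, 1770 and 2490 CPM in wild-type and 23.4, 52.2, 37.7 and 97.4 in rescued libraries, 2.85% of wild-type (log2 -5.13, SE 0.65, edgeR adjusted p = 7.05e-06). Enhancer-null libraries had 87.5, 111, 59.6 and 367 CPM of Hbb-bs, a mean of 156 (8.47% of wild-type) that was 86.0 (4.65%) without replicate 4. The vector's effect on Hbb-bs missed the call (log2 -1.57, edgeR adjusted p = 0.0552) and was -0.71 without that library (edgeR adjusted p = 0.375), although it was called without enhancer-null replicate 3 (-1.84, edgeR adjusted p = 0.0352). Hba-a2, an alpha globin with 438 ± 141 CPM in wild-type, had 6.05, 12.1, 7.42 and 21.6 CPM in rescued and 19.0, 26.2, 17.6 and 92.5 in enhancer-null libraries. Enhancer-null replicate 4 was again far the highest, and the 2 groups overlapped. The call of Hba-a2 below its enhancer-null level (log2 -1.72, edgeR adjusted p = 0.0375) was lost without that library (-0.82, edgeR adjusted p = 0.285). Hbb-bt (log2 -4.42) and Hbq1b (log2 -6.25) were lower too. Reads of the near-identical pairs Hba-a1 and Hba-a2, and Hbb-bs and Hbb-bt, may be split between copies. The summed globin level was 2460 to 4770 CPM in wild-type, 54.4 to 208 in rescued and 123 to 738 in enhancer-null libraries, so rescued and enhancer-null libraries overlapped.

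Haem synthesis and membrane genes stayed low, and many were higher with the vector than without it. Of 12 haem synthesis genes 11 were called lower than wild-type (median -1.98) and the vector raised 7 of the 12 (3 without enhancer-null replicate 3). Alas2, the first enzyme of haem synthesis in red cells, had 39.3, 95.0, 78.8 and 106 CPM in wild-type and 3.40, 2.82, 1.09 and 10.8 in rescued libraries (log2 -4.13, SE 0.57, edgeR adjusted p = 1.88e-05), near the enhancer-null 4.87. Uros and Fech, later enzymes of the pathway, were lower by 2.74 and 2.42 on the log2 scale. Cpox, which acts between Uros and Fech, went from 28.7 in enhancer-null to 79.2 in rescued cells against 360 in wild-type. All 19 red cell membrane and blood group genes were called lower, with a median of -3.02 (rescued) against -4.99 (enhancer-null), and the vector raised 12 and lowered 1 of them, Slc4a1. Slc4a1, Dmtn (the actin-binding protein dematin, 1.56% of wild-type), Epb42 (protein 4.2, 3.59%) and Sptb (beta spectrin, 3.63%) were the lowest of the list. Ermap and Kel, both blood group antigens, reached 17.1% and 22.8% of wild-type from 2.86% and 2.63%. The summed membrane level was 2520 to 3560 CPM in wild-type, 439, 452, 298 and 668 in rescued replicates 1 to 4 and 214 to 271 in enhancer-null libraries, and the 3 groups did not overlap.

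**Figure D2:**
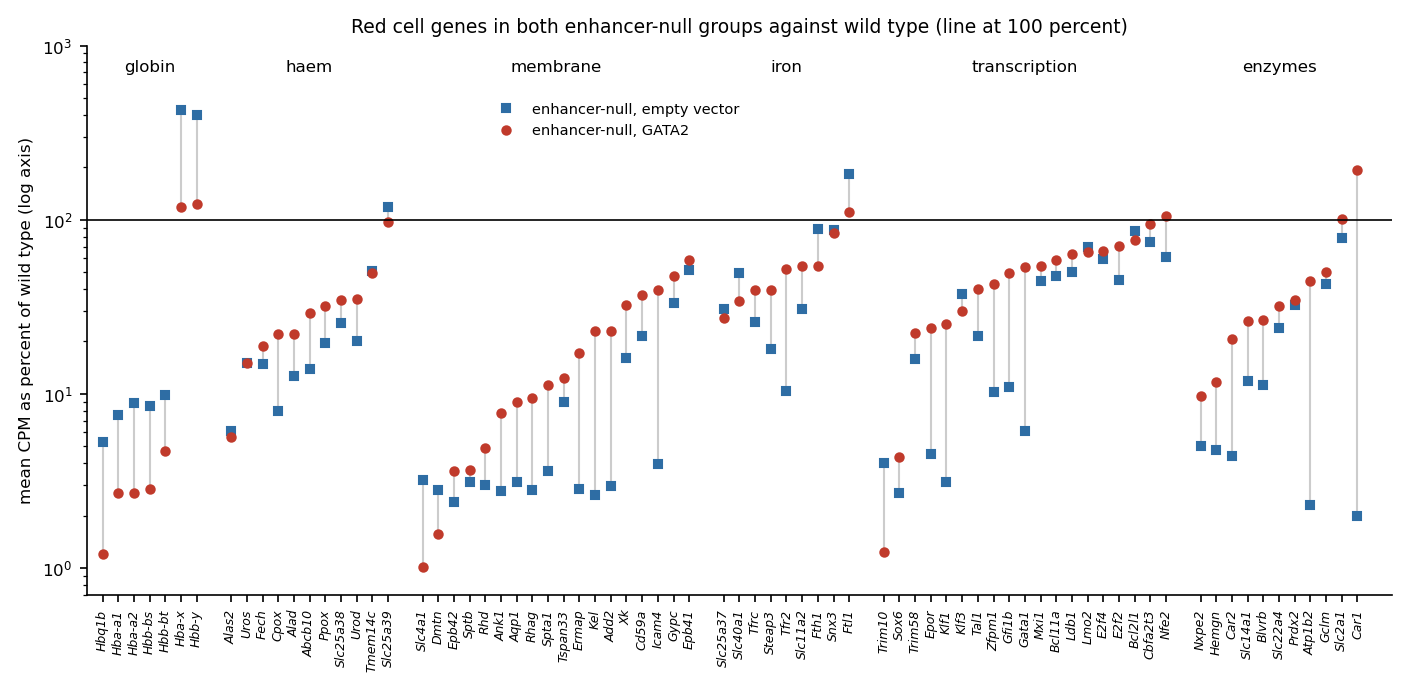
Mean CPM of the red cell genes reported here as a percent of its wild-type mean (log axis; line at 100) in rescued cells (circles) and enhancer-null cells (squares), by list. Slc4a1 and the globins have rescued values below their enhancer-null values, Kel, Klf1 and Gata1 lie well above theirs, and Nfe2 and Car1 are at or above 100.

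Red cell regulators and early enzymes ended at different shares of their wild-type level. Of 19 erythroid transcription and signalling genes 17 were called lower (median -0.90), a count that fell to 11 when either wild-type replicate 4 or GATA2 replicate 3 was left out. Gata1 had 88.5, 79.8, 102 and 92.7 CPM in wild-type and 45.5, 45.8, 29.6 and 73.5 in rescued libraries, 53.6% of wild-type from 6.09% in enhancer-null cells. Its difference from wild-type, a log2 value of -0.90 (SE 0.33), was called by a small margin (edgeR adjusted p = 0.0481). That call was lost without any 1 of wild-type replicates 1 to 4 or GATA2 replicates 1 to 3, with values of -0.93 to -0.68. Klf1, an activator of globin and membrane genes, reached 25.3% of wild-type from 3.11% (log2 -1.98, edgeR adjusted p = 0.000498), and Epor, the erythropoietin receptor, 23.9% from 4.50%. Sox6, a partner in adult globin switching, had 48.7, 74.5, 77.2 and 93.9 CPM in wild-type and 2.76, 4.19, 2.17 and 3.63 in rescued libraries. It stayed at 4.33% of wild-type (log2 -4.53, SE 0.22, edgeR adjusted p = 1.06e-10), although its rise over enhancer-null cells was called (log2 0.69, edgeR adjusted p = 0.0294) and was lost without enhancer-null replicate 1, 3 or 4 (0.60 to 0.69). Nfe2, a factor of red cells and platelets, had 116 CPM in wild-type and 122 in rescued cells (log2 0.07, edgeR adjusted p = 0.732; -0.02 without GATA2 replicate 4).

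Of 11 early erythroid enzymes and transporters 8 were called lower (median -1.64), and the vector raised 8 of the 11. Car2, a carbonic anhydrase, had 802, 827, 1170 and 835 CPM in wild-type and 158, 161, 89.7 and 343 in rescued libraries (log2 -2.27, edgeR adjusted p = 1.7e-05). Car1, another carbonic anhydrase, had 10.1, 10.5, 12.4 and 8.82 CPM in wild-type and 17.9, 17.0, 9.97 and 35.5 in rescued libraries, with 0.206 in enhancer-null cells. GATA2 replicate 3 lay within the wild-type range of Car1, which was not called (log2 0.95, edgeR adjusted p = 0.0567). Car1 was called without that library (1.21), by DESeq2 (adjusted p = 0.0452) and with no filter on low counts (1.00, edgeR adjusted p = 0.0254). Nxpe2 (log2 -3.35), Slc22a4 (-1.64) and Prdx2, an abundant antioxidant enzyme of red cells (-1.52), stayed low. For iron uptake 8 of 9 genes were lower (median -0.94): Slc25a37, the mitochondrial iron importer, by 1.87 on the log2 scale, Slc40a1, the iron exporter ferroportin, by 1.55, and Tfrc, the transferrin receptor, by 1.35. Tfrc rose with the vector (721 against 474 CPM) and Slc40a1 fell (54.1 against 78.8 CPM).

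Megakaryocyte genes mostly stayed low. Of 23 megakaryocyte and platelet genes 17 were called lower and 2 higher than wild-type (median -1.48), against 19 lower and 1 higher in enhancer-null cells. The vector raised 5 of them (3 without enhancer-null replicate 1, 2 or 3) and lowered 3 (0 by edgeR without enhancer-null replicate 4). Vwf, von Willebrand factor, had 57.5, 59.5, 67.3 and 128 CPM in wild-type and 11.5, 16.3, 12.4 and 18.2 in rescued libraries (log2 -2.42, SE 0.38, edgeR adjusted p = 8.55e-05), with 22.5 in enhancer-null cells. Tubb1, the platelet beta tubulin (log2 -3.04), Gp1bb, part of the von Willebrand receptor (-2.26), and Pf4, a platelet chemokine (-1.44), stayed low. Clec1b was lower by 3.10, but it overlaps Clec9a and its reads may be split. Fli1, a transcription factor of the lineage, was higher instead (123 against 75.2 CPM, log2 0.71, edgeR adjusted p = 8.26e-05).

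Late neutrophil granule genes stayed low. Of 18 such genes 15 were called lower than wild-type (median -3.35), as were 15 in enhancer-null cells (median -2.46), and the vector lowered 10 and raised 1. The 10 became 3 without enhancer-null replicate 2 or enhancer-null replicate 4. Camp, which encodes cathelicidin of specific granules, had 178, 374, 235 and 297 CPM in wild-type and 12.2, 17.1, 11.8 and 9.56 in rescued libraries, below the 35.0 ± 9.73 of enhancer-null cells. Its log2 difference was -4.42 against wild-type (SE 0.39, edgeR adjusted p = 1.3e-07) and -1.47 against enhancer-null cells (edgeR adjusted p = 0.00713). Ltf, lactoferrin, and Ngp, another specific granule protein, had the same order of means, with 985, 47.3 and 120 CPM and 741, 36.2 and 82.2 CPM in wild-type, rescued and enhancer-null cells. Their calls below the enhancer-null level were lost without enhancer-null replicate 2 or 4. S100a9, a subunit of the calcium-binding protein calprotectin, had 2540, 7030, 3710 and 3420 CPM in wild-type and 585, 598, 454 and 384 in rescued libraries (log2 -3.05, edgeR adjusted p = 8.55e-07). The summed level of the list was 7610, 19400, 10800 and 10400 CPM in wild-type and 1230 to 1930 in rescued libraries. Mmp8, neutrophil collagenase, was the 1 member called higher (103 against 200 CPM, log2 0.96, edgeR adjusted p = 0.0186), and this call was lost without wild-type replicate 1 (0.77).

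Of 12 early neutrophil (azurophil) granule genes 3 were higher and 3 lower (median -0.04), against 14.7% and 16.0% of all tested genes. Elane, neutrophil elastase, was lower (27.2 against 67.6 CPM), as were Fcnb, a ficolin (14.0 against 69.0), and Gfi1 (15.8 against 28.1). Gfi1 encodes a repressor needed for neutrophils and not a granule protein. Srgn, the proteoglycan that packs granule proteins, and Cst7, a protease inhibitor, were higher, with log2 differences of 0.94 and 1.05. Elane was not called in enhancer-null cells (49.7 CPM) and was lower with the vector than without it (log2 -0.87, edgeR adjusted p = 0.00485).

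Around Gata2 on chromosome 6, 8 of 19 tested neighbour genes were called lower and 3 higher, with a median of 0.0 (5 lower without GATA2 replicate 1 or without GATA2 replicate 3). Over all tested genes 16.0% were called lower and 14.7% higher. Kbtbd12 (log2 -3.54) and Mgll, a monoacylglycerol lipase 531 kb from the Gata2 start, had the largest differences. Mgll had 18.0, 18.6, 23.6 and 25.1 CPM in wild-type and 1.61, 2.70, 1.95 and 2.30 in rescued libraries (log2 -3.31, SE 0.19, edgeR adjusted p = 9.04e-10). Its rescued and enhancer-null levels were 2.14 and 2.41 CPM, a difference that was not called (log2 -0.17, SE 0.19, edgeR adjusted p = 0.59). Rab43 and the platelet gene Gp9 were lower by 0.81 and 1.79 on the log2 scale.

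**Figure D3:**
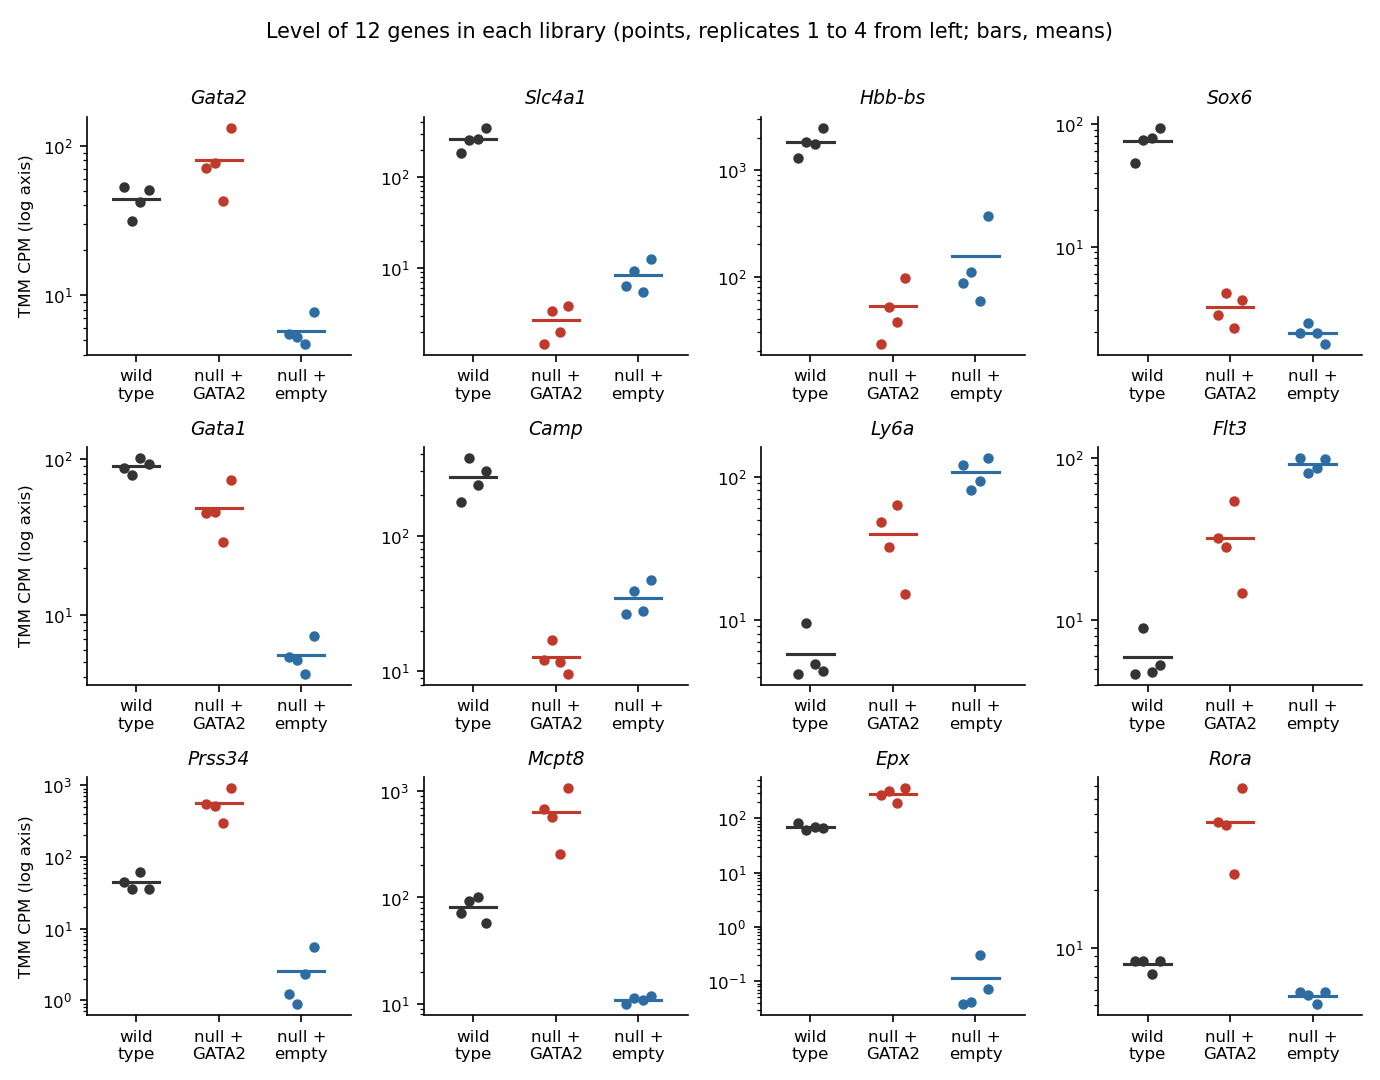
CPM of 12 genes in each library on log axes, with replicates 1 to 4 from left to right and bars at the mean of 4 libraries. Slc4a1, Hbb-bs and Camp have their lowest means in rescued cells, Ly6a and Flt3 lie between the wild-type and enhancer-null levels, and Prss34, Mcpt8, Epx and Rora are highest in rescued cells.

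By the same rule, genes that stayed high were led by Galnt12, Ifit1bl1, Cd96, Scin, Pdgfrb and Ly6a, with log2 differences of 3.24 to 2.80. Ly6a, the stem cell antigen Sca-1 and itself responsive to interferon, had 4.17, 9.47, 4.93 and 4.41 CPM in wild-type and 48.0, 32.3, 63.7 and 15 in rescued libraries, with 107 in enhancer-null cells. GATA2 replicate 4 was closest to wild-type, and the rule itself required all 4 rescued libraries to lie above it (log2 2.80, SE 0.42, edgeR adjusted p = 4.55e-05). Scin, which encodes the actin-severing protein scinderin, had 36.5, 40.8, 41.5 and 27.0 CPM in wild-type and 243, 238, 267 and 392 in rescued libraries. It was carried away from wild-type by the vector, from 103 CPM in enhancer-null cells (log2 1.47, edgeR adjusted p = 0.00246). Pdgfrb, a growth factor receptor, did the same, with 3.55 ± 0.495 CPM in wild-type, 6.55 ± 0.680 in enhancer-null and 26.6 ± 6.80 in rescued cells (vector log2 2.02, edgeR adjusted p = 7.27e-05). Gpr183, an oxysterol receptor, and Ifitm1, an interferon-induced membrane protein, were also highest in rescued cells, at 71.4 and 577 CPM against 13.4 and 120 in wild-type.

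Antigen presentation genes stayed above wild-type. For dendritic cells and MHC class II, 14 of 19 genes were called higher and 2 lower (median 1.80), against 17 and 2 in enhancer-null cells (median 3.18), and the vector lowered 15. Cd74, the invariant chain, had 14.1 CPM in wild-type, 53.2 in rescued and 138 in enhancer-null cells (log2 1.91 against wild-type, edgeR adjusted p = 0.000272). H2-Aa, an MHC class II chain, had 4.91, 19.2 and 59.6 CPM in the same order. Flt3, the receptor that supports dendritic and lymphoid progenitors, had 4.65, 8.93, 4.79 and 5.29 CPM in wild-type and 32.2, 28.4, 53.9 and 14.6 in rescued libraries (log2 2.45, edgeR adjusted p = 0.000232). The 2 lower genes were Zbtb46, a factor of conventional dendritic cells (4.89 against 19.0 CPM), and Clec9a, a receptor of one of their subsets (0.283 against 2.34 CPM). Clec9a overlaps the platelet gene Clec1b, so its reads may be split with that gene. The summed level of the list was 147 to 175 CPM in wild-type and 299, 264, 401 and 222 in rescued replicates 1 to 4.

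Interferon response genes were intermediate. Of 34 genes 23 were called higher and 0 lower (median 1.24), against 32 higher in enhancer-null cells (median 2.53), and the vector lowered 27 and raised 0. The 27 became 11 without enhancer-null replicate 1 and 17 without enhancer-null replicate 2. The count of 23 fell to 14 without wild-type replicate 1 or without GATA2 replicate 3. The libraries of the 2 groups were apart for 4 of the 34 genes, a smaller share than the 25.3% of all tested genes. Ifit3 had 1.52, 8.93, 1.88 and 3.01 CPM in wild-type and 25.5, 30.7, 41.9 and 7.78 in rescued libraries (log2 2.80, SE 0.62, edgeR adjusted p = 0.002), where wild-type replicate 2 lay above GATA2 replicate 4. Bst2 (tetherin) and Ddx58 (the RNA sensor RIG-I) were higher by 1.08 and 1.02 on the log2 scale. The summed level was 378, 689, 436 and 444 CPM in wild-type, 880, 964, 1160 and 473 in rescued and 1670 to 2410 in enhancer-null libraries.

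For monocytes and macrophages a smaller part of the list stayed high. Of 27 genes 9 were called higher and 0 lower (median 0.58), against 24 higher in enhancer-null cells (median 1.63). The 9 became 5 without wild-type replicate 3 or wild-type replicate 4 and 4 without GATA2 replicate 3. The 0 lower genes became 1 without wild-type replicate 3 or GATA2 replicate 4. Cx3cr1, a chemokine receptor of monocytes, had 5.09, 6.92, 8.26 and 7.24 CPM in wild-type and 33, 21.7, 34.6 and 31.9 in rescued libraries (log2 2.14, edgeR adjusted p = 6.91e-06). Ccr2, another monocyte chemokine receptor, and Adgre1, a macrophage surface marker, were higher by 1.73 and 1.05 on the log2 scale. Csf1r, the receptor of the macrophage growth factor, had 80.6, 98.5, 62.0 and 87.2 CPM in wild-type and 195, 191, 272 and 81.9 in rescued libraries, with GATA2 replicate 4 inside the wild-type range. Its call (log2 1.17, edgeR adjusted p = 0.0281) was lost without wild-type replicate 1, wild-type replicate 3 or GATA2 replicate 3. Irf8, the factor that directs monocytes and dendritic cells, followed the same pattern (13.7 against 37.4 CPM, log2 1.45, edgeR adjusted p = 0.0233) and lost its call without wild-type replicate 4 or GATA2 replicate 3.

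Stem cell and progenitor factors were mixed, and most early lymphoid genes were higher. Of 24 stem and progenitor factors 12 were called higher, 5 lower and 7 neither (median 0.57; 3 lower without wild-type replicate 4), against 11 higher and 8 lower in enhancer-null cells. Cd34, a progenitor surface protein, had 60.5, 190 and 399 CPM in wild-type, rescued and enhancer-null cells. Meis1 and Hoxa9, homeobox factors of stem cells, and Mecom were higher by 1.23, 1.43 and 1.48 on the log2 scale. Tal1 and Mllt3, which act in both stem cells and the red cell and megakaryocyte lineages, stayed lower, by 1.33 and 1.58. Of 10 early lymphoid genes 7 were higher and 0 lower (median 1.44), among them Cd7 (0.402 against 4.58 CPM), Cd27 (0.552 against 2.72), Tcf7 (0.453 against 1.88) and Ighm (7.34 against 25.8). Il7r, the interleukin 7 receptor, was raised by the vector instead, from 10.7 to 26.4 CPM, with 7.24 in wild-type.

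**Figure D4:**
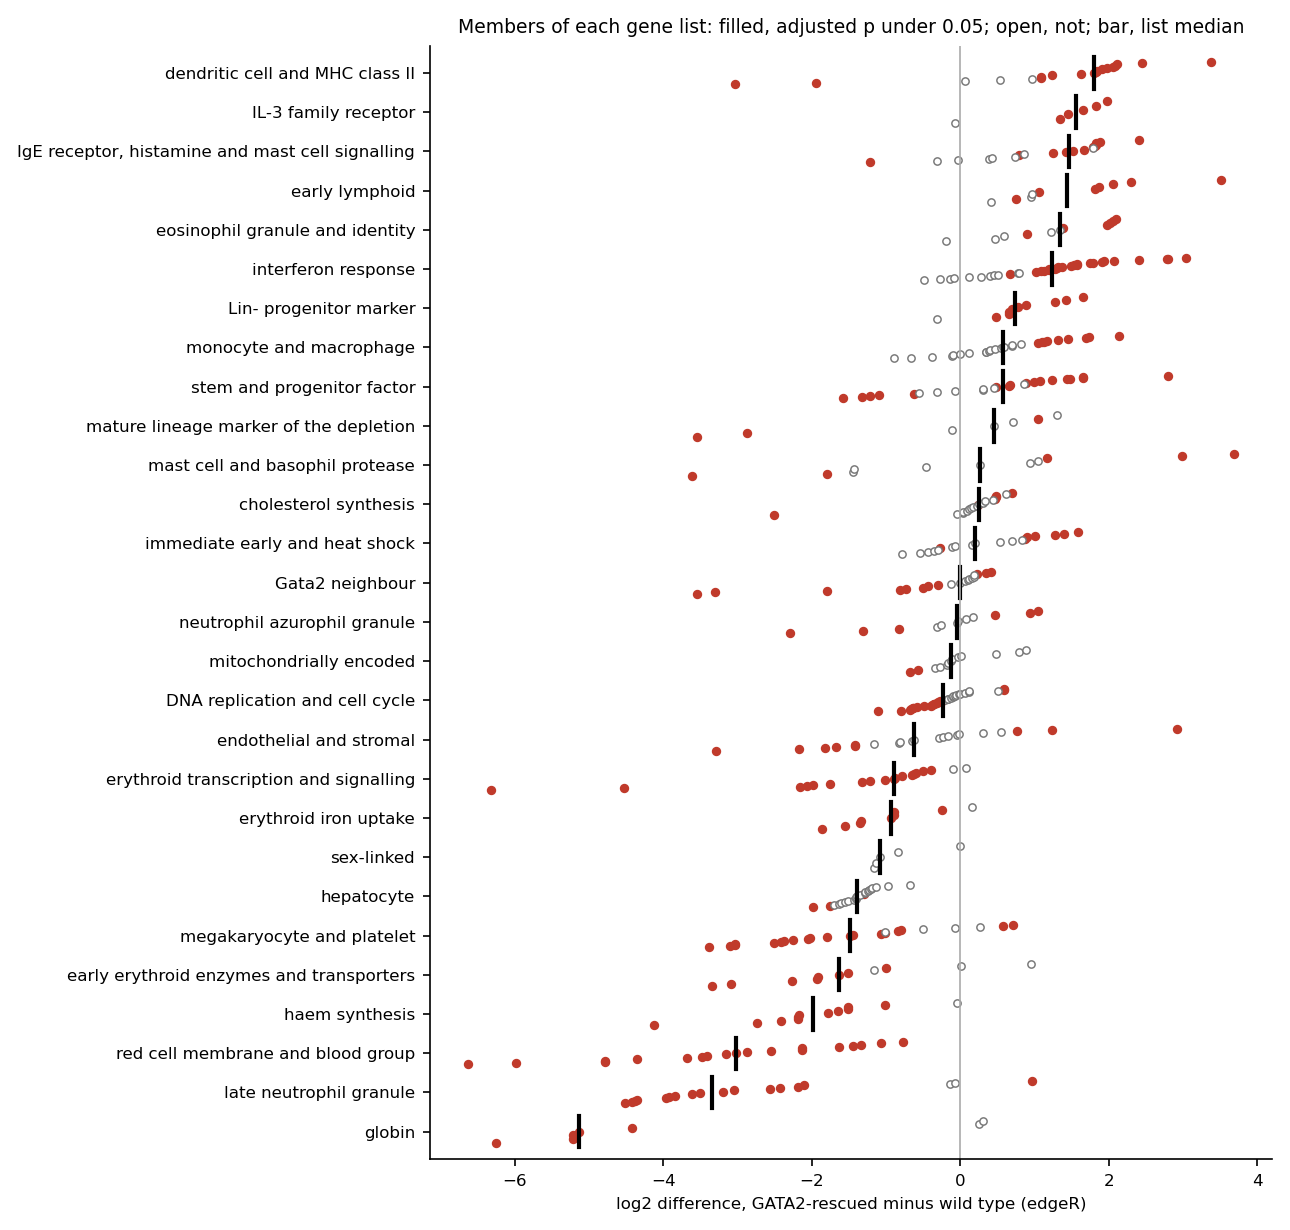
Log2 difference, rescued minus wild-type, of every tested member of 28 gene lists, ordered by the list median (bar). Filled points have an edgeR adjusted p under 0.05; globin, late neutrophil and membrane genes lie furthest to the left (medians -5.13, -3.35 and -3.02), and dendritic, IL-3 receptor and mast cell signalling genes furthest to the right (1.80, 1.55 and 1.46).

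The largest overshoots, Prss34 and Mcpt8, were genes of basophils. By the same rule the 6 largest differences among overshoots were Prss34, Mcpt8, Csrp3, Slc26a3, Avil and Dnase2b, with log2 differences of 3.68 to 2.77. Prss34 and Mcpt8 encode serine proteases of basophil granules. Prss34 (chromosome 17, 25298394 to 25300165) had 44.6, 35.5, 60.7 and 36.1 CPM in wild-type and 547, 507, 296 and 913 in rescued libraries, against 2.52 ± 2.15 in enhancer-null libraries (1.49 without enhancer-null replicate 4). The rule itself required all 4 rescued libraries to exceed the highest wild-type library. The log2 difference was 3.68 against wild-type (SE 0.69, edgeR adjusted p = 0.000469) and 7.78 against enhancer-null cells (edgeR adjusted p = 8.12e-06). Mcpt8 had 72.1, 91.8, 102 and 57.7 CPM in wild-type and 679, 571, 255 and 1070 in rescued libraries (log2 2.99, SE 0.40, edgeR adjusted p = 1.37e-05), against 11.0 in enhancer-null cells. For both genes GATA2 replicate 3 was the lowest and replicate 4 the highest rescued library, as they were for Gata2.

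Most mast cell and basophil proteases were not called against wild-type. Of 11 tested 3 were higher and 2 lower (median 0.27), against 14.7% and 16.0% of all tested genes. In enhancer-null cells all 11 were called lower (median -5.63), and the vector raised 10. The other higher gene besides Prss34 and Mcpt8 was Cpa3, carboxypeptidase A3, with 236, 381, 338 and 244 CPM in wild-type and 719, 594, 343 and 1040 in rescued libraries (log2 1.17, edgeR adjusted p = 0.0232). Its call was lost without wild-type replicate 1 (1.07), wild-type replicate 4 (1.11) or GATA2 replicate 4 (0.88). Cma1, the mast cell chymase, had 45.0, 88.7, 64.8 and 59.3 CPM in wild-type and 23.5, 11.9, 1.31 and 37.8 in rescued libraries, with 0.452 in enhancer-null cells. Although its groups did not overlap, its call (log2 -1.79, edgeR adjusted p = 0.0485) was lost without any 1 of wild-type replicates 1 to 4 or GATA2 replicates 1 to 3, with values of -1.93 to -1.36, and in DESeq2 (adjusted p = 0.114). Mcpt1, a mucosal mast cell protease at 2.76 CPM in wild-type, was at 0.217 in rescued cells (log2 -3.61, edgeR adjusted p = 0.00296). The count of 2 lower proteases was 1 without any of wild-type replicates 1 to 4 or GATA2 replicates 1 to 3, and 4 without GATA2 replicate 4.

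Most IgE receptor, histamine and mast cell signalling genes were above wild-type. Of 20 genes 12 were called higher and 1 lower (median 1.46), and leaving out replicate 4 of both groups at once left 7 higher. The list also held the myeloid transcription factor Cebpa and the chemokine Ccl3, both among the 12. Without GATA2 replicate 4 alone 2 were lower. Ms4a2, the beta chain of the IgE receptor, had 34.3, 41.1, 44.5 and 22.8 CPM in wild-type and 180, 163, 133 and 284 in rescued libraries (log2 2.41, SE 0.49, edgeR adjusted p = 0.000912). Hdc, which makes histamine, was higher by 1.25 on the log2 scale (239 against 568 CPM), and Il1rl1, the alarmin receptor subunit ST2, by 1.67 (118 against 377 CPM; edgeR adjusted p = 0.0167, a call lost without GATA2 replicate 4 at 1.28). Fcer1g, the gamma chain shared by several Fc receptors, stayed high in both groups without the enhancer, at 89.8 and 88.9 CPM against 52.0. Rab27b, which moves secretory granules, was the lower gene (25.9 against 60.2 CPM, log2 -1.22). Il6 and Cyp11a1, which encode a cytokine and a steroid-making enzyme, overshot from 0.741 and 3.59 CPM to 67.6 and 257, with 14.3 and 66.6 in wild-type. The call of Cyp11a1 was lost without replicate 4 of both groups (1.52, edgeR adjusted p = 0.102).

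Eosinophil genes overshot in their major granule proteins. Of 11 tested eosinophil genes 6 were higher and 0 lower than wild-type (median 1.34). In enhancer-null cells all 11 were lower (median -5.04), and the vector raised all 11 (median 6.98). Epx, eosinophil peroxidase (chromosome 11, 87864000 to 87875536), had 81.7, 61.7, 68.8 and 65.6 CPM in wild-type and 265, 327, 193 and 362 in rescued libraries, from 0.114 ± 0.129 in enhancer-null cells, or 0.0502 without enhancer-null replicate 3 (log2 2.05 against wild-type, SE 0.44, edgeR adjusted p = 0.00149). Prg2, the major basic protein, had 406, 600, 636 and 376 CPM in wild-type and 2170, 2360, 1340 and 2330 in rescued libraries (log2 2.02, edgeR adjusted p = 0.00249). Prg3, its homologue, was higher by 2.10, Il5ra, the interleukin 5 receptor, by 1.97, and Siglecf, an eosinophil lectin, by 0.90. Ear1, an eosinophil ribonuclease, had 50.7, 86.9, 85.5 and 56.0 CPM in wild-type and 110, 116, 47.3 and 111 in rescued libraries and was not called (log2 0.46, edgeR adjusted p = 0.569). Reads of Ear1 may be shared with its near-identical copies. Alox15, a lipoxygenase, was not called either (25.5 against 64.5 CPM, log2 1.34, edgeR adjusted p = 0.0738), but was without GATA2 replicate 3 (1.62). The summed eosinophil level was 685 to 1090 CPM in wild-type, 1910 to 3380 in rescued and 21.4 to 30.2 in enhancer-null libraries.

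The list of receptors for IL-3 and its relatives, which also held Cd34, had 5 of 6 genes higher (median 1.55; 3 of 6 without GATA2 replicate 4). Csf2rb, the common beta chain for IL-3, IL-5 and GM-CSF, had 232, 269, 253 and 257 CPM in wild-type and 874, 848, 630 and 1220 in rescued libraries (log2 1.82, SE 0.20, edgeR adjusted p = 1.56e-06). Enhancer-null cells had 368 ± 43.5 CPM, so the vector moved the gene further from wild-type (log2 1.28, edgeR adjusted p = 0.000178). Reads may be split with its copy Csf2rb2. Cebpa, a myeloid transcription factor, rose in the same manner, with 27.6, 46.4 and 73.7 CPM in wild-type, enhancer-null and rescued cells.

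**Figure D5:**
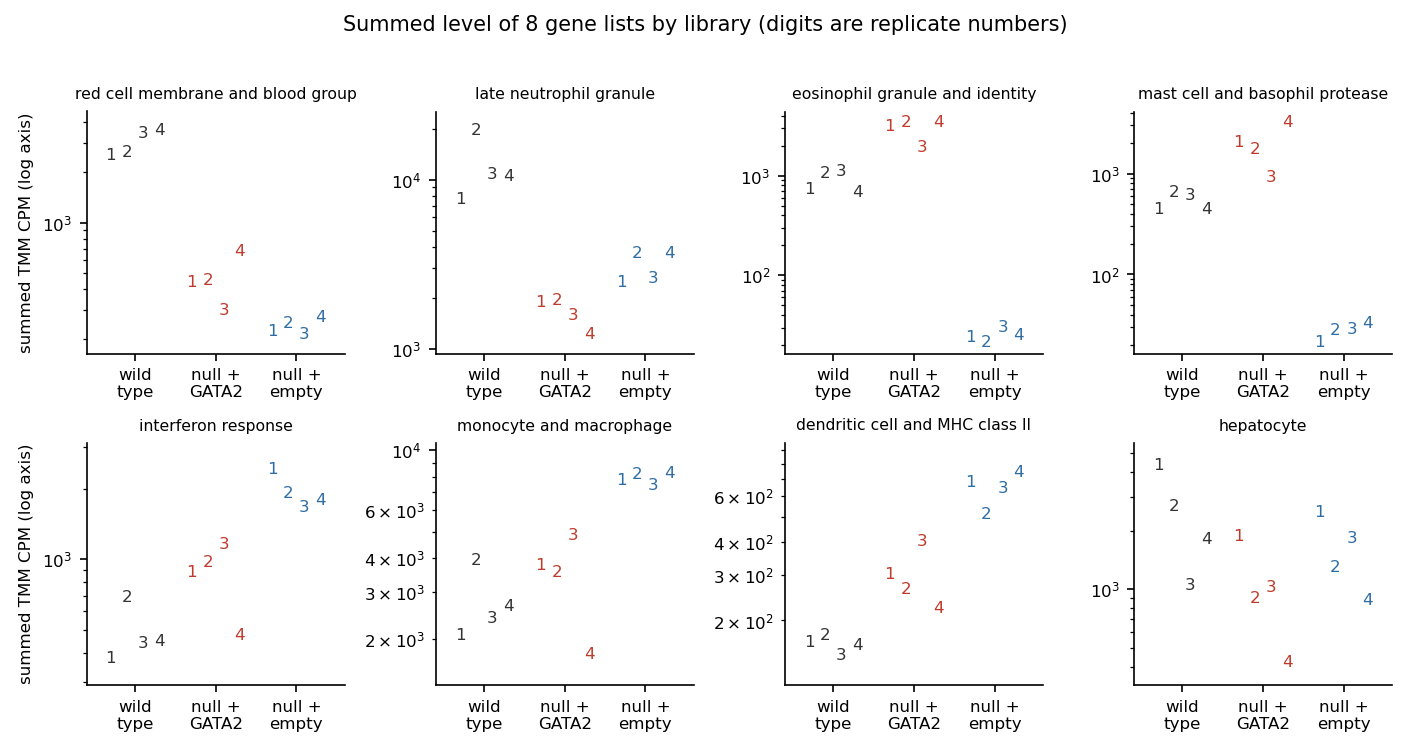
Summed CPM of 8 gene lists in each library (log axes; each digit is a replicate number). Membrane, late neutrophil, eosinophil, mast cell protease and dendritic sums separate all 3 groups. Late neutrophil sums of rescued cells lie below both others, and GATA2 replicate 4 falls inside or beside the wild-type libraries for interferon and monocyte genes.

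Several progenitor regulators overshot slightly or were higher in rescued cells without an enhancer-null call. Myb, a factor of dividing progenitors, had 259, 231, 276 and 242 CPM in wild-type and 358, 347, 306 and 392 in rescued libraries (log2 0.48, edgeR adjusted p = 0.0036), against 171 in enhancer-null cells. Runx1, a master factor of blood, and Fcgr3, an Fc receptor that marks granulocyte and monocyte progenitors, had no enhancer-null call and were higher in rescued cells, by 0.88 and 1.28 on the log2 scale. Spi1, which encodes PU.1, stayed high (36.4 against 57.7 CPM, log2 0.66). The largest rises without an enhancer-null call were Fgf3, St8sia6, Rora and Emid1. Rora, an orphan nuclear receptor, had 8.48, 8.54, 7.28 and 8.49 CPM in wild-type and 45.0, 43.9, 24.2 and 68.0 in rescued libraries, with 5.61 in enhancer-null cells (log2 2.46 against wild-type, SE 0.35, edgeR adjusted p = 2.91e-05). Pecam1, an adhesion molecule of endothelium, platelets and myeloid cells, and Ccl3, a chemokine, were higher by 1.24 and 1.81. Fgf3, a fibroblast growth factor, went from 1.44 to 10.9 CPM.

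Among genes lower in rescued cells without an enhancer-null call, and leaving out predicted genes, the largest falls were Lrp2, Ccn2, Prss23 and Chil3. Of these 3 were highest in wild-type replicate 1, as hepatocyte and stromal genes were. Enhancer-null levels of Lrp2, Ccn2, Prss23 and Chil3 were already 48.2%, 45.4%, 47.3% and 73.2% of wild-type. Against enhancer-null cells Ccn2 and Prss23 were not called (edgeR adjusted p = 0.0546 and 0.122), though Ccn2 was without enhancer-null replicate 1. Lrp2 and Chil3 were called lower (0.0292 and 0.0157), and the call of Lrp2 was lost without enhancer-null replicate 3 or 4. Lrp2, the receptor megalin, had 19.5, 5.60, 2.82 and 5.84 CPM in wild-type and 1.79, 0.989, 1.95 and 0.754 in rescued libraries, with wild-type replicate 1 the highest. Ccn2, a matrix growth factor, and Prss23, a secreted protease, were also highest in wild-type replicate 1, at 47.7 and 13.7 CPM. Chil3, a chitinase-like protein of neutrophils and macrophages, was lower by 2.19 on the log2 scale and highest in wild-type replicate 2. The hepatocyte list held 25 genes, of which 23 were tested. The summed level of the 25 was 4350, 2650, 1050 and 1800 CPM in wild-type, 1870, 893, 1020 and 418 in rescued and 877 to 2490 in enhancer-null libraries. Alb and Afp, the main secreted proteins of fetal hepatocytes, had 290 and 1050 CPM in wild-type and 114 and 446 in rescued cells and were not called (edgeR adjusted p = 0.151 and 0.116). With a replicate block both were called lower (edgeR adjusted p = 0.00113 and 0.00224). Of the 23 tested hepatocyte genes 3 were called lower, Serpina1c, Hnf4a and Rbp4, a share near the 16.0% of all tested genes. The median of the list was -1.39. The count of 3 was 0 without wild-type replicate 1, GATA2 replicate 2, GATA2 replicate 3 or GATA2 replicate 4, 1 without wild-type replicate 4 and 5 without wild-type replicate 3. With a replicate block the count was 22. Of 21 endothelial and stromal genes 6 were lower and 3 higher (median -0.63), against 16.0% and 14.7% of all tested genes. Tagln, a smooth muscle protein, had 33.8, 9.96, 4.65 and 12.4 CPM in wild-type and 0.617 to 2.47 in rescued libraries. The summed stromal level was 350, 191, 134 and 188 CPM in wild-type and 190 to 229 in rescued libraries. The part of these cells in the other differences was not tested.

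Of 32 DNA replication and cell cycle genes 16 were lower, 2 higher and 14 not called (median -0.23). The 16 lower genes became 10 with the 8 libraries alone and 9 in limma, which called 1 higher. The count of higher genes was 1 without wild-type replicate 2, wild-type replicate 3 or GATA2 replicate 2. Mki67, a marker of dividing cells, had 1750, 2300, 2490 and 2300 CPM in wild-type and 1450, 1410, 1330 and 1390 in rescued libraries (log2 -0.67, edgeR adjusted p = 9.13e-05). Ccne1, cyclin E1, and Cdc6, a replication licensing factor, were lower by 1.11 and 0.80, and Cdkn1a, the cell cycle inhibitor p21, was higher by 0.59.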

How the data were processed

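Total RNA was sequenced from 20 libraries in 5 groups of 4. Per the submitters' processing notes, the tools were STAR 2.5.2b and RSEM 1.3.0 and the build was mm10. Strand of counting is not given in the sources used here. Per the file headers, the authors deposited expected counts, TPM and FPKM per gene for each library. FPKM as deposited by the authors was read but not used for any result, and TPM served for 1 alternative.

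Expected counts were rounded to whole numbers. Of 53379 gene IDs, 53274 were matched to a symbol, and 15835 passed edgeR's filter on low counts. A quasi-likelihood model (edgeR 4.0.16, R 4.3.3) was fitted to all 20 libraries after TMM scaling, with group as the factor and 15 residual degrees of freedom. Benjamini-Hochberg adjustment covered every tested gene, and calls needed an adjusted p under 0.05. Libraries held 22330475 to 33245876 counts, which sets the precision of low genes. No 2 libraries of the same group agreed within sampling noise. The fit was tested on simulated data.

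A gene was said to stay low or high when rescued and enhancer-null cells were both called on the same side of wild-type, and to overshoot when they were called on opposite sides. Named genes were Gata2, the 6 largest differences of each class (4 for genes called in rescued cells alone) with at least 5 CPM in either group and no overlap, leaving out predicted, ribosomal, mitochondrial, histone and pseudogene symbols, and the 3 lowest adjusted p per list of 28 lists. Further list members, such as Gata1, Klf1, Hbb-bs, Prg2, Ms4a2, Flt3 and Csf1r, and genes that the vector moved further from wild-type, such as Gpr183 and Ifitm1, were named after their values were seen. Members and lists were chosen with earlier results of these data known. Lists are described by counts and medians and were not tested as sets. A few genes that the rule names are not reported here.

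Alternatives were DESeq2 1.42.0, its size factors, limma 3.58.1 on log2(TPM + 1), no filter on low counts, the 8 libraries alone, protein-coding genes alone, a replicate block and leaving out each library. The alternatives for class and list counts and for leaving out each enhancer-null library were added after seeing the data.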

Additional observations from a re-analysis of the deposited data

Results flagged for a closer look

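In 19 genes named in the text, 1 of the 4 libraries of a group lay apart from the other 3, relative to their spread, by Dixon's test. Chance alone flags about 1 in 20 groups. With 148 named genes and 2 groups for each, many such flags would arise by chance.

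Wild-type replicate 2 was the library furthest out for 7 genes. It had 9.47 CPM of Ly6a (4.17 to 4.93 in the others), 8.93 of Flt3 (4.65 to 5.29), 2.80 of Itgax (1.47 to 1.55) and 64.9 of Fcer1g (46.5 to 48.5). For the interferon gene Ddx58 it had 34.2 CPM (19.7 to 20.1 in the others), and for Ifi44 0.393 (0.217 to 0.235). It also had 83.2 CPM of Fcnb against 62.8 to 66.1.

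Wild-type replicate 3 was high in Prdx2, at 400.0 CPM against 349 to 357, in Cpox, at 488 against 305 to 325, and in Car2, at 1170 against 802 to 835. It was low in Rora, at 7.28 against 8.48 to 8.54. Wild-type replicate 1 was low in Tubb1, at 20.9 CPM against 33.9 to 36.6, and wild-type replicate 4 was high in Vwf, at 128 against 57.5 to 67.3.

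Among rescued libraries, replicate 4 had 0.720 CPM of Mcpt1 against 0.0 to 0.0761 and 169 of Thbs1 against 298 to 313. Replicate 3 had 47.3 CPM of Ear1 against 110 to 116. Replicate 2 had 49.3 CPM of Ngp against 30.0 to 32.9 and 80.2 of Cdc6 against 77.1 to 77.4. Replicate 1 had 170 CPM of mt-Nd5 against 206 to 212.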

How the results depend on the processing

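Of 148 named genes, 129 kept their direction and their side of the threshold under all 17 settings they were tested in, and 2432 of 2509 single comparisons did. The 1 change of sign was Nfe2, at -0.02 on the log2 scale without GATA2 replicate 4 and at most 0.19 (without GATA2 replicate 3). Of the 4869 calls, 2002 were at least 2-fold. DESeq2 called 5210 genes, limma on log2(TPM + 1) 4071 (2337 higher and 1734 lower, the opposite balance to the 2335 and 2534 reported) and the 8 libraries alone 3618, and leaving out each library gave 4278 to 5077. Genes that overshot numbered 94 in limma, 84 without replicate 4 of both groups and 114 to 202 without each library in turn, against 148. Overshoot below wild-type was called for 0 to 1 genes without each library in turn. Genes that stayed low ranged from 1563 to 2044 and those that stayed high from 1486 to 1937 in the same leave-outs. Leaving out enhancer-null libraries turned the sign of some uncalled differences of rescued from enhancer-null cells. On the log2 scale and over these leave-outs, Gp9 ranged from -0.61 to 0.29, Ly6g from -0.90 to 0.62, Alas2 from -0.33 to 0.44 and Pf4 from -0.46 to 0.29, each above 0 without replicate 4. Uros ranged from -0.04 to 0.03 (0.00 without replicate 3), and Fcer1g from -0.02 to 0.07 (-0.01 without replicate 3). The causes of these changes were not tested.

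Same-numbered wild-type and rescued libraries had deviations with correlations of 0.039, 0.042, -0.077 and 0.151, so the numbers were not taken as pairs, and not every library correlated best with its own number. With a replicate block 5874 genes were called, and with the 8 libraries alone and a replicate block 3313, of which 1502 were higher. Overshoot below wild-type was called for 4 genes with the replicate block. With that block 22 of 23 hepatocyte genes were called lower, against 3. Alb and Afp were among them, at -1.53 (edgeR adjusted p = 0.00113) and -1.32 (0.00224), and both were also called with the 8 libraries alone and that block (0.0146 and 0.0198). Car1 was called with the block too (0.75, edgeR adjusted p = 0.0475), and 10 cell cycle genes were lower with the 8 libraries alone and the block.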

Other observations

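Cholesterol synthesis genes were raised by the vector. Of 20 tested genes, 15 were called higher and 0 lower in rescued than in enhancer-null cells (median log2 difference 0.55), and 6 were called higher and 1 lower than wild-type (median 0.25; 10 higher without GATA2 replicate 3). Cyp51, a sterol demethylase, had 78.2, 92.6, 90.9 and 59.3 CPM in wild-type and 138, 140.0, 119 and 125 in rescued libraries (log2 0.70, edgeR adjusted p = 0.00119). Hmgcs1, an early enzyme of the pathway, had 97.3 CPM in wild-type and 136 in rescued cells.

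Of 19 immediate early and heat shock genes 6 were higher and 1 lower than wild-type (median 0.19), and the lower one was not called without wild-type replicate 3, GATA2 replicate 1, GATA2 replicate 2 or GATA2 replicate 3. Egr1, a transcription factor induced by growth signals, had 18.1, 4.52, 14.1 and 14.6 CPM in wild-type and 40.2, 32.1, 22.6 and 59.0 in rescued libraries (log2 1.58, edgeR adjusted p = 0.0032).

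Among 13 mitochondrially encoded genes 2 were lower and 0 higher (median -0.13), and the share of lower genes was near the 16.0% of all tested genes. The lower genes were mt-Nd4 and mt-Nd5, subunits of respiratory complex I, lower by 0.68 and 0.57 on the log2 scale. The counts were 1 lower without replicate 4 of both groups, and 1 higher without wild-type replicate 2 or without GATA2 replicate 3.

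The predicted genes Gm26870, Gm10800, Gm10721, Gm10717, Gm10720 and Gm10715, chosen after their values were seen, together had 30500, 15600, 21300 and 11300 CPM in wild-type replicates 1 to 4. The same sum was 744, 1440, 7440 and 3480 in rescued and 1100, 5370, 14700 and 4210 in enhancer-null replicates 1 to 4.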
